A study of Mus musculus with 3 samples.

Results

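Kupffer cells from a mouse fed an ethanol liquid diet for 10 days were compared with those from a mouse fed the same diet for 3 days. A barcode was taken as a Kupffer cell when it held at least 1000 UMIs (unique molecular identifiers, each standing for 1 captured RNA molecule), at least 300 genes and at most 10% of its UMIs in mitochondrially encoded genes, and when Clec4f, Cd5l, C1qa, C1qb and C1qc together made up at least 1% of its UMIs. This rule gave 3820 barcodes at 3 days and 2724 at 10 days, together 6544 of the 7075 barcodes in the 2 ethanol libraries that passed the filters on depth, genes and mitochondrial UMIs. The whole series, with its chow library, held 9081 Kupffer barcodes among 9842.

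The series sampled 3 male mice aged 8 weeks, with 1 mouse and 1 library per condition. Their strain and genotype are not stated in the labels. The conditions were normal chow and a Lieber-DeCarli liquid diet with 5% ethanol, given for 3 or for 10 days. Livers were digested with collagenase, non-parenchymal cells were collected by centrifugation, and live cells sorted on F4/80 (high) and CD11b (intermediate) were loaded on the 10x Genomics Chromium system with 3′ v2 chemistry. By the labels the ethanol groups differed in duration only, whereas the chow mouse also ate another form of diet, so chow values stand beside the others as levels. Duration, animal, sort and library cannot be told apart with 1 mouse a side, and no test between the groups was possible.

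Kupffer cells are macrophages that live in the sinusoids, the capillaries of the liver. They clear bacterial products arriving from the gut, aged red cells and dying cells from portal blood, and they send out chemokines and cytokines that call other leukocytes into the liver. Ethanol feeding is known to let more bacterial products reach the liver and to load hepatocytes with lipid, and Kupffer cells meet both through scavenger receptors, Toll-like receptors and nuclear receptors such as LXR.

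The Kupffer barcodes held 12964325 UMIs at 3 days and 9130161 at 10 days, with medians of 3117 and 3080 UMIs and of 1468 and 1478 genes per cell. Chow Kupffer barcodes were deeper, with a median of 4675 UMIs. Kupffer barcodes were 94.1% (95% Clopper-Pearson interval 93.3% to 94.8%) of passing barcodes at 3 days and 90.4% (89.3% to 91.4%) at 10 days. These intervals, and all intervals given here, cover counting error only. Median mitochondrial shares were 5.18% and 6.42%, and ribosomal protein genes made up 13.6% and 11.5% of the summed UMIs. The 2 libraries shared 17 Kupffer barcode sequences. Few barcodes lay near the 1% gate: 8 and 8 held 0.9% to 1% of the gate genes and 16 and 10 held 1% to 1.1%.

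The label was checked on Kupffer markers outside the gate, in cells thinned to 1000 UMIs each. The complement receptor Vsig4 had a UMI in 95.8% of cells at 3 days and 95.6% at 10 days (unthinned 99.6% in both). The macrophage surface protein Adgre1, which is F4/80, was seen in 54.5% and 57.0% (unthinned 87.2% and 88.0%), the folate receptor Folr2 in 42.4% and 48.7% (unthinned 75.8% and 81.5%), and Timd4, a receptor for dying cells, in 34.9% and 35.9% (unthinned 69.9% and 70.3%). T and NK-like barcodes of the same libraries, which should lack these genes, gave a background of 16.5% and 17.5% for Vsig4, 4.12% and 5.00% for Adgre1, 10.3% and 8.12% for Folr2, and 1.03% and 5.00% for Timd4. There were 97 and 160 such barcodes, with median depths of 2616 and 2462 UMIs. The markers fit the labelled cell type in both libraries.

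Expression was compared as CPM, counts per 1000000 UMIs summed over the Kupffer barcodes of a library. A gene counted as measured when the mean of the 2 ethanol libraries was at least 10 CPM, as higher when its 10-day over 3-day ratio was above 1.5, and as lower when it was below 1/1.5, with 1 CPM added to both sides. Of 7543 measured genes, 149 (1.98%) were higher and 129 (1.71%) were lower at 10 days. Together these were 278 genes (3.69%), of which 107 had at least 50 CPM in 1 of the 2 libraries. The median log2 ratio over all measured genes was 0.02, and the 5th and 95th percentiles were −0.40 and 0.42. Past 2-fold there were 20 higher and 18 lower genes. The shares of 1.98% higher and 1.71% lower stand beside the counts of every gene list below. A list with 1 called member is not read as different from them. The plot of ratio against level shows Ttc39c, Ccl9, Vcam1 and Cd163 apart from genes of like level.

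**Figure D1:**
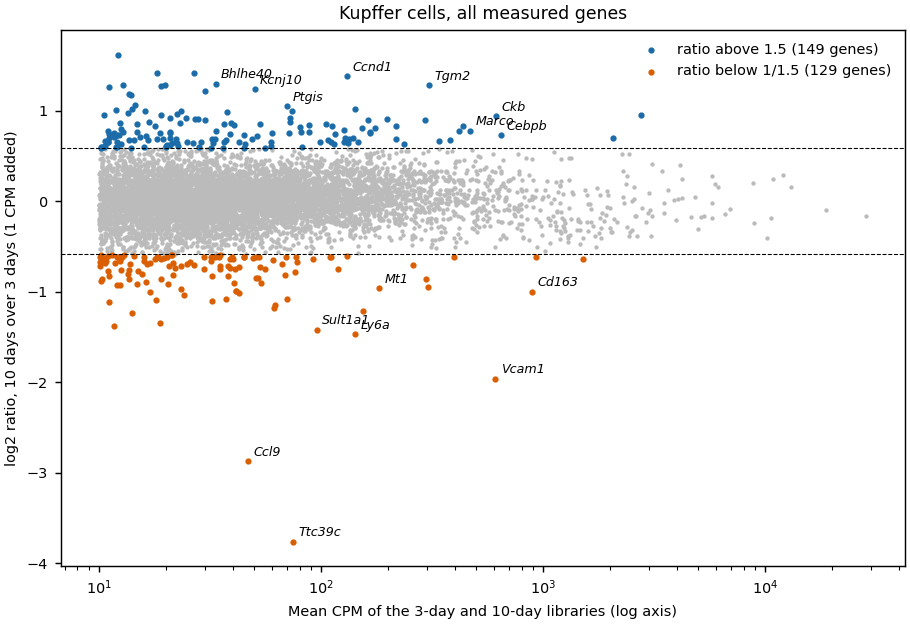
Each point is a measured gene, with the mean CPM of the 2 ethanol libraries on a log x axis and the log2 ratio of 10 days over 3 days (1 CPM added) on the y axis; dashed lines mark 1.5-fold. The 149 genes above and 129 genes below the lines are coloured, and Ttc39c, Ccl9 and Vcam1 are the lowest of the labelled points.

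Genes were ranked by ratio among those with at least 50 CPM in 1 of the 2 libraries. The full rule, with the classes left out, is given with the processing. The lowest ranked ratio was that of Ttc39c, whose protein carries tetratricopeptide repeats and has a function that is largely unknown. Its level was 140.5 CPM at 3 days, 9.42 CPM at 10 days and 7.74 CPM in chow, so the 3-day library alone was high. The ratio of 10 days over 3 days was 0.0671 (95% interval 0.0534 to 0.0833), from 1821 and 86 UMIs. In thinned cells a UMI was seen in 11.5% (10.5% to 12.6%) at 3 days and 0.771% (0.478% to 1.18%) at 10 days (unthinned 32.6% and 2.90%). T and NK-like barcodes gave 1.03% and 3.75%, at 10 days more than Kupffer cells. They may express the gene, so they give no sure background for it. The gene (ENSMUSG00000024424) lies on the plus strand of chromosome 18 of GRCm38.

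Ccl9, a chemokine that draws myeloid cells, was next. It had 83.2 CPM at 3 days, 10.5 CPM at 10 days and 9.57 CPM in chow, and the ratio was 0.126 (0.101 to 0.156). Again the 3-day library was the high one. The share of thinned cells with a UMI was 6.65% (5.88% to 7.49%) at 3 days and 1.03% (0.684% to 1.48%) at 10 days (unthinned 19.3% and 2.97%), beside a background of 1.03% and 1.88%. At 10 days Ccl9 was not above background. The gene (ENSMUSG00000019122) lies at chromosome 11, 83572919 to 83578636, on the minus strand.

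Vcam1 encodes the adhesion receptor that integrin-bearing leukocytes bind. It had 969.9 CPM at 3 days, 249 CPM at 10 days and 317 CPM in chow. The ratio was 0.257 (0.245 to 0.268), resting on 12574 and 2273 UMIs. Of thinned cells, 58.8% (57.2% to 60.4%) had a UMI at 3 days and 20.4% (18.9% to 22%) at 10 days, with 27.0% in chow (unthinned 86.4%, 41.7% and 63.4%). Background shares were 9.28% and 0.625% in the 2 ethanol libraries. Cells with 3 or more Vcam1 UMIs of 1000 were 12.6% at 3 days and 1.51% at 10 days, and the 1% of cells with the most Vcam1 held 4.8% and 11.6% of its UMIs. The signal at 3 days was spread over most cells. Vcam1 (ENSMUSG00000027962) lies at chromosome 3, 116109949 to 116129688, on the minus strand.

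Cd163, the receptor for haemoglobin bound to haptoglobin, had 1186 CPM at 3 days, 593 CPM at 10 days and 543 CPM in chow. Its ratio was 0.50 (0.484 to 0.516). A UMI was seen in 63.8% of thinned cells at 3 days, 41.7% at 10 days and 41.2% in chow (unthinned 86.0%, 71.1% and 76.0%), with 6.19% and 1.88% as background at 3 and 10 days. Cells with 3 or more UMIs were 15% at 3 days and 3.67% at 10 days. Like Vcam1, Cd163 was highest in the 3-day library. Its chow and 10-day levels were close, whereas Vcam1 was lower at 10 days than in chow. It lies at chromosome 6, 124304656 to 124330527, on the plus strand (ENSMUSG00000008845).

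The other genes among the 15 lowest ranked ratios were of several kinds. Ly6a, the surface antigen Sca-1, had 209 CPM at 3 days and 75.0 CPM at 10 days (0.358, 0.329 to 0.390), and chow had 189 CPM, so here the 10-day library was the low one. The platelet-factor chemokine Pf4 went from 85.6 to 37.2 CPM (0.435, 0.384 to 0.492), with 78.9 CPM in chow. Ms4a6b (0.445) and Ms4a6c (0.516, from 400.3 to 206 CPM) encode tetraspan membrane proteins of immune cells, and their sequences are close to those of other Ms4a genes. T and NK-like barcodes also carry Ly6a, with shares of 36.1% and 34.4%, and Ms4a6b, with 34.0% and 28.8%, and give no background for them.

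Another group holds enzymes and genes that glucocorticoids or metals can induce. Sult1a1, a sulfotransferase, had 139.6 CPM at 3 days, 51.7 CPM at 10 days and 54.7 CPM in chow (0.370, 0.334 to 0.410). The metallothionein Mt1, a metal-binding protein, had 241, 124 and 139.9 CPM in the same order (0.514, 0.479 to 0.550). Fkbp5, a co-chaperone of the glucocorticoid receptor, went from 55.1 to 27.3 CPM (0.495, 0.427 to 0.573), and Dcxr, a reductase of sugars and dicarbonyls, from 95.7 to 44.8 CPM (0.468, 0.417 to 0.524). The 3-day library was the highest of the 3 for each of these 4 genes. For Sult1a1 and Mt1 chow was close to 10 days. Chow had 41.5 CPM of Fkbp5 and 78.7 CPM of Dcxr, well above their 10-day levels.

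Prdm1, the transcriptional repressor Blimp-1, went from 57.1 to 27.9 CPM (0.489), Il18, a cytokine released after inflammasome activation, from 55.6 to 27.5 CPM (0.494, 0.426 to 0.571), and the noncoding transcript Zfos1 from 217 to 93.4 CPM (0.431). Zfos1 overlaps Znfx1, Sult1a1 overlaps Sgf29, and Il18 overlaps Bco2 and Tex12, each on the other strand. The strand setting of the counting is not given in the sources used here, so reads of overlapping partners are uncertain. The 16th lowest gene, just outside the named set, was Egr1 at 0.526.

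On the other side, Ccnd1, the cyclin that starts entry into the cell cycle, had the highest ranked ratio. Its level was 71.7 CPM at 3 days, 189 CPM at 10 days and 159 CPM in chow, which gave 10 days over 3 days a ratio of 2.63 (2.43 to 2.86). The share of thinned cells with a UMI was 6.81% (6.03% to 7.65%), 15.7% (14.4% to 17.1%) and 15.6% in that order (unthinned 18.6%, 39.6% and 46.0%). No T or NK-like barcode had a UMI at 10 days, which allows a share of up to 1.88%, and 1.03% had one at 3 days. The 3-day library was the low one. Ccnd1 (ENSMUSG00000070348) lies at chromosome 7, 144929931 to 144939925, on the minus strand, where the annotation places LTO1 on the other strand.

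Tgm2, a transglutaminase that macrophages use when they take up dying cells, had 178 CPM at 3 days, 433 CPM at 10 days and 368 CPM in chow. The ratio was 2.43 (2.31 to 2.56). A UMI was seen in 15.4% (14.2% to 16.5%) of thinned cells at 3 days and 34.1% (32.3% to 35.9%) at 10 days (unthinned 40.0% and 67.5%), beside a background of 0%, which allows up to 3.09%, and of 1.88%. In chow the share was 29.6%. The potassium channel Kcnj10 was likewise lowest at 3 days, with 29.5 CPM at 3 days, 71.0 CPM at 10 days and 73.1 CPM in chow (2.41, 2.12 to 2.74).

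Some genes were highest at 10 days, with chow closer to the 3-day level. The prostacyclin synthase Ptgis had 45.5 CPM at 3 days, 95.5 CPM at 10 days and 40.4 CPM in chow (2.10, 1.89 to 2.33). Creatine kinase Ckb, which buffers ATP, had 419, 805 and 493 CPM (1.92, 1.85 to 1.99), and 35.7% and 56.2% of thinned cells at 3 and 10 days had a UMI (unthinned 72.1% and 89.1%). T and NK-like barcodes gave 22.7% and 19.4%. The phospholipid-binding annexin Anxa3 had 205, 384 and 204 CPM (1.87, 1.78 to 1.97). Scd1, the desaturase that makes monounsaturated fatty acids, had 138, 260.0 and 109 CPM (1.88, 1.77 to 2.00), and its paralog Scd2 had a ratio of 1.78 (1.62 to 1.97). Ltc4s, the leukotriene C4 synthase, differed between all 3 libraries, at 114, 212 and 59.0 CPM (1.87, 1.74 to 2.00).

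Among the remaining genes of the 15 highest, Cdc42ep2, an effector of the cytoskeletal GTPase Cdc42, went from 24.9 to 50.6 CPM (2.03), Fam167a from 48.8 to 98.9 CPM (2.03), and the kinase gene Aatk from 49.8 to 95.1 CPM (1.91). Plekhm3 had a ratio of 1.86, the ETS transcription factor Etv5 1.86, the phagosomal GTPase Rab20 1.83, and Pram1, an adaptor of myeloid cells, 1.82. Tagln2, an actin-binding protein, lay just outside at 1.81. Genes below 50 CPM in both libraries were not ranked here either, and some had higher ratios, such as Bhlhe40 (2.53) and Mcm5 (2.43).

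**Figure D2:**
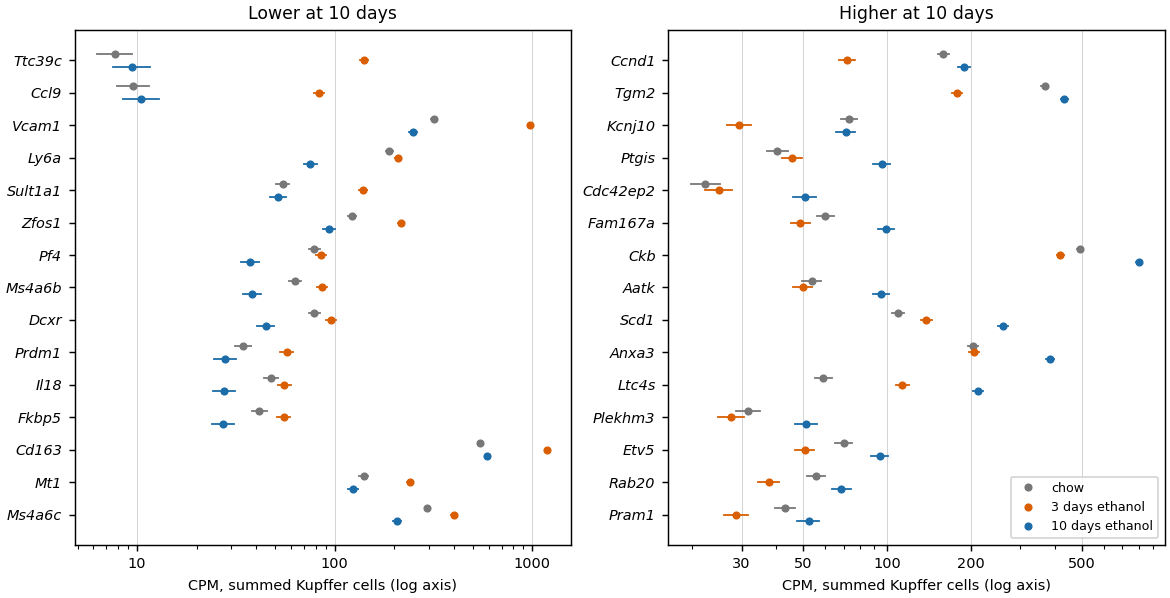
Points are summed Kupffer CPM (log axis) in the chow, 3-day and 10-day libraries for the 15 lowest (left) and 15 highest (right) ranked ratios. Lines are exact 95% Poisson intervals, which cover counting error only. The 3-day point is far to the right for Ttc39c, Ccl9 and Vcam1 and to the left for Ccnd1, Tgm2 and Kcnj10.

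Free RNA was followed in barcodes of 10 to 100 UMIs, too few for a cell. All 30 named genes had their ratio on the same side of 1 there as in Kupffer cells, and for 7 of them it was farther from 1. Vcam1, for example, had 780.3 CPM in these barcodes at 3 days and 249 CPM at 10 days. The low-UMI barcodes held Kupffer RNA too, such as Clec4f at 4210.4 CPM against 4004 CPM in Kupffer cells at 3 days. A ratio on the same side of 1 therefore cannot tell free RNA from expression in the cells. None of the 30 ratios changed direction when free RNA was subtracted or under the other 14 settings tried. The 30 genes were chosen for their extreme ratios, so this is no measure of stability. Settings of the level filter or the pseudocount leave a ratio as it is. With cells limited to 5% mitochondrial UMIs, 1688 at 3 days and 384 at 10 days, Pf4 had a ratio of 0.765 and Aatk 1.35, both within 1.5-fold, Ly6a had 0.585 and Ttc39c 0.108, while Vcam1 had 0.228 and Cd163 0.463.

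**Figure D3:**
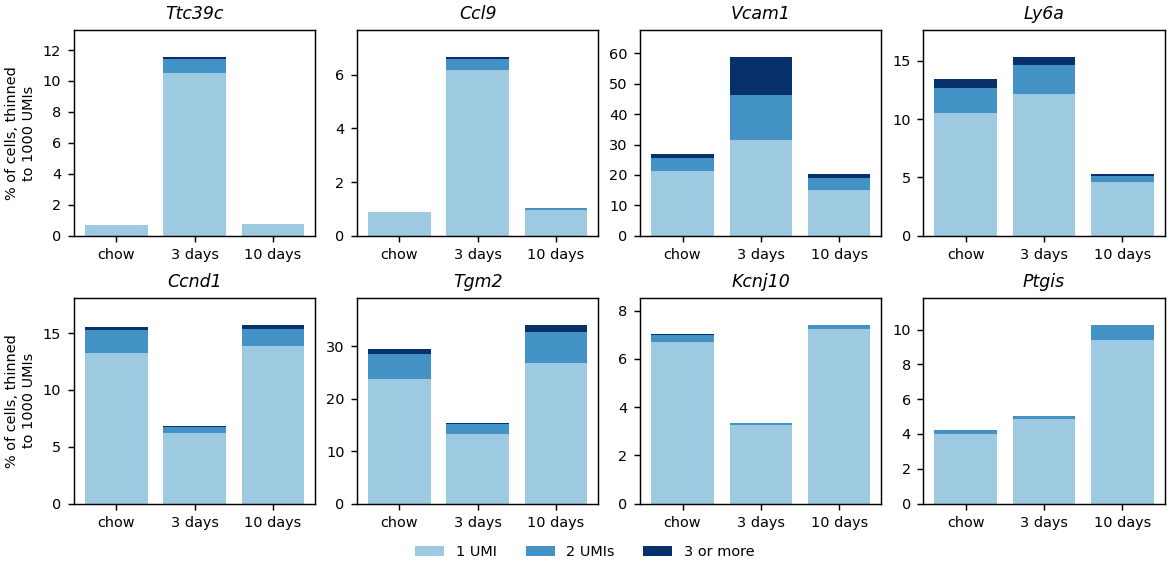
Stacked bars give the percentage of Kupffer cells, each thinned to 1000 UMIs, that held 1, 2 or at least 3 UMIs of a gene in the chow, 3-day and 10-day libraries; y axes differ between panels. Vcam1 was seen in 58.8% of cells at 3 days and 20.4% at 10 days, and Tgm2 in 15.4% and 34.1%.

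Type I interferon response genes were the list with the lowest median among those not of other cell types. Type I interferon acts through a cell surface receptor and turns on genes that restrict viruses. Of 34 listed genes 32 were measured. Of these, 0 were higher and 6 were lower at 10 days, 30 had a log2 ratio below 0, and the median was −0.43, against 1.71% lower and a median of 0.02 over all measured genes. The summed level was 4867 CPM in chow, 4432 CPM at 3 days and 3492 CPM at 10 days. Across the settings tried the median lay between −0.490 and −0.360.

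The lowest member was Usp18, a protease that removes ISG15 and damps interferon signalling. It had 21.6 CPM in chow, 31.3 CPM at 3 days and 15.6 CPM at 10 days, a ratio of 0.497 (0.407 to 0.603). Ifit3, which binds viral RNA complexes, had 71.6, 70.3 and 37.3 CPM (0.531, 0.467 to 0.602), so chow and 3 days were alike and 10 days was low. Isg15, the ubiquitin-like modifier itself, had 75.0, 67.3 and 37.0 CPM (0.550, 0.483 to 0.624), with the same order of libraries. Oasl2, of the oligoadenylate synthetase family, had 80.9, 88.0 and 49.6 CPM (0.564, 0.504 to 0.629). The GTPase Mx1 (0.626) and the RNA sensor Ifih1 (0.649) were the other members past the limit. They and Isg15, Oasl2 and Irf7 are named here after their values were seen.

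Irf7, the transcription factor that amplifies the response, went from 388 to 269 CPM (0.695, 0.662 to 0.729), and 29.7% and 21.3% of thinned cells had a UMI (unthinned 63.9% and 52.6%, background 7.22% and 4.38%). At the other end Irf9 (1.05) and Ifi27 (1.14, 1.04 to 1.26) were not below 1. Per cell, the list took a median of 4 of 1000 UMIs at 3 days and 3 at 10 days, with 10th to 90th percentiles of 1 to 8 and 1 to 6. Of all pairs of a 10-day and a 3-day cell, with ties split evenly, the 10-day cell was above in 38.8%, and in 39.7% without Ifitm3, the most abundant member. The 1% of cells with the most of these UMIs held 3.21% of them at 3 days and 3.66% at 10 days. The UMIs of the list were thus not held by a few cells in either library. The interferon-inducible GTPases, a list driven more by interferon gamma, had a median of −0.05 with 1 of 12 members higher, Gbp2b (1.78, 1.68 to 1.89), which has close paralogs, and 0 lower.

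The promoters of this list are shown because 30 of its 32 measured members had ratios below 1. RefSeq promoter sequences (GRCm38.p6, 250 bases before to 50 after the start) were matched by symbol for 23 of the 32 measured members. The letters GAAA, any 2 bases and GAAA again, a form of the interferon-stimulated response element, were searched on both strands, a motif added after the data were seen. They were found in 14 of 23 (60.9%), against 243 of 5878 (4.13%) measured genes with a promoter and 1079 of 27025 (3.99%) of all promoters. The list was chosen as interferon response genes, so this share describes the list and not the difference between 10 and 3 days. Of genes with a promoter, 9 of 88 (10.2%) called lower held the motif and 4 of 109 (3.67%) called higher. The genes called lower include members of this list. None of the 11 matched genes of the 15 lowest ranked ratios held it and none of 9 of the 15 highest. Below are the 200 bases before the start of Ifit3 (chr19:34583329-34583528, plus strand), Isg15 (chr4:156200819-156201018, minus strand) and Oasl2 (chr5:114896734-114896933, plus strand), 5′ to 3′ along the gene, with matches on either strand in capitals.
Ifit3: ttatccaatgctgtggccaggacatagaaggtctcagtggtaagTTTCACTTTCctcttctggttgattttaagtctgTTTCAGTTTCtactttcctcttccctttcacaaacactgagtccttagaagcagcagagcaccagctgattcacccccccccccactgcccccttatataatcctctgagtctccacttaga
Isg15: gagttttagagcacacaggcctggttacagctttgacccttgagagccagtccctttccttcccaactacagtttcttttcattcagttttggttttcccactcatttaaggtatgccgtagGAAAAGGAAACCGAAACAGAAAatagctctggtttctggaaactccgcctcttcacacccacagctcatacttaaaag
Oasl2: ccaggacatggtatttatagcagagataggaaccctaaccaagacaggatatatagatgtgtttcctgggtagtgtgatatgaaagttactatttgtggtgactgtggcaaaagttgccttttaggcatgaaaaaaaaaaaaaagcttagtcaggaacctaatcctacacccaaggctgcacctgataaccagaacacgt

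Ifit3 holds 2 separate matches, both read from the other strand, and Isg15 holds 3 that overlap in 1 run. The stretch shown for Oasl2 holds 0, although its ratio was close to theirs. A match is a description of letters and not a site. Other motifs in the 23 promoters were AP-1 (TGANTCA) in 8 and the GC box (GGGCGG) in 8, or 34.8% each. Among measured genes with a promoter, AP-1 was found in 6.21% and the GC box in 71.6%, and over all promoters in 8.97% and 38.2%. The E-box (CACGTG) was in 0 of the 23, against 12.7% of measured genes and 8.09% of all promoters. The nuclear receptor half-site (AGGTCA) was in 6 (26.1%), against 14.7% and 18.1%.

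Chemokines recruit leukocytes to the liver. Of 15 measured members 0 were higher and 5 lower, against 1.98% and 1.71% of all measured genes. Their median was −0.18, with a summed level of 3430.3 CPM at 3 days and 2700.4 CPM at 10 days. The lower ones were Ccl9, Pf4 and the monocyte attractants Ccl7 (from 15.6 to 6.68 CPM, 0.429, 0.317 to 0.574) and Ccl2 (from 44.3 to 26.0 CPM, 0.586, 0.502 to 0.683), with Ccl6, a chemokine of macrophages, from 1848 to 1187 CPM (0.642, 0.628 to 0.657). Chow had 881 CPM of Ccl6, so the 3-day library was the high one. Ccl6 and Ccl2 were named after their values were seen. At the other end the T cell attractant Cxcl9 had a ratio of 1.34 (1.14 to 1.58), or 0.718 in cells limited to 5% mitochondrial UMIs, and Cxcl14 1.49 (1.24 to 1.79). Without Ccl6 the share of cell pairs with the 10-day cell above was 49.4%, against 41.2% with it, so in single cells the difference of the list lay mainly in Ccl6. In cells of over 5% mitochondrial UMIs the median of the list was 0.10 and the ratio of Ccl7 0.819.

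Inflammatory cytokines and NF-kB feedback genes had a median of −0.01 over 23 members, with 1 higher and 1 lower. Those were the transcription factor Irf1 (from 86.3 to 145 CPM, 1.68, 1.55 to 1.82, and 1.45 in cells limited to 5% mitochondrial UMIs) and Il18. Il1b, the pyrogenic cytokine, went from 362 to 268 CPM (0.740, 0.705 to 0.778), and Il6 was at 13.3 and 18.7 CPM (1.41, 1.14 to 1.75, and 0.805 in cells limited to 5% mitochondrial UMIs). Genes for sensing bacterial lipopolysaccharide and other microbial products had a median of 0.02 over 22 members, 0 higher and 1 lower. The lower one was Tlr7, a sensor of single-stranded RNA (0.652, 0.576 to 0.737), which was within 1.5-fold under 4 of the other settings, with 0.736 in cells of over 5% mitochondrial UMIs. Ly96, the partner of TLR4 known as MD-2, had 0.669 (0.608 to 0.735), and Tlr4 itself 1.24 (1.11 to 1.38).

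**Figure D4:**
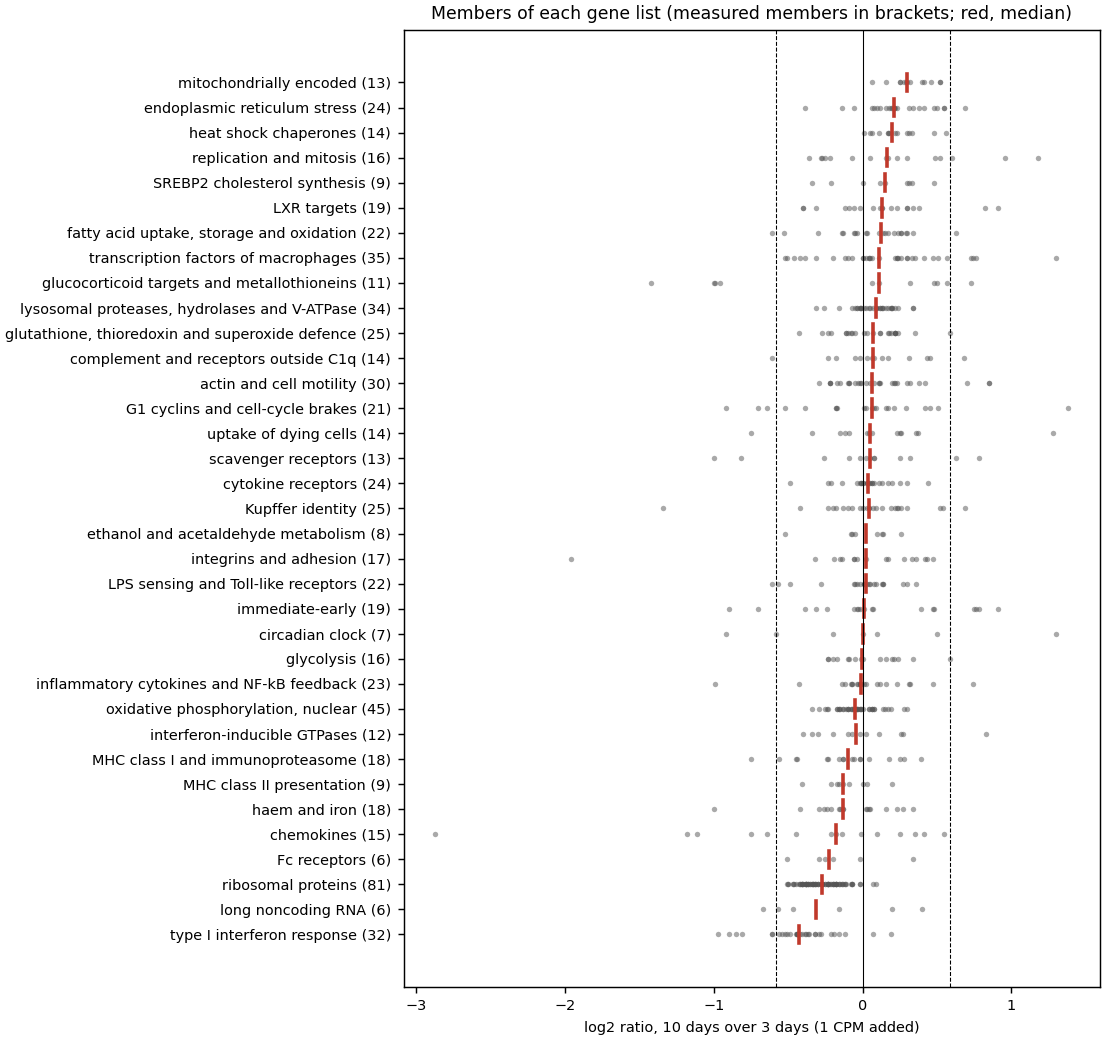
Each grey point is a measured member of a gene list, for lists of at least 5 measured members and not of other cell types, placed by its log2 ratio of 10 days over 3 days (1 CPM added), and red bars are medians; dashed lines mark 1.5-fold. Lists are ordered by median, from type I interferon response (−0.43) at the bottom to mitochondrially encoded genes (0.30) at the top.

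Scavenger receptors bind modified lipoproteins, bacteria and haemoglobin. Their median was 0.05 over 13 members, with 2 higher and 2 lower, against 1.98% and 1.71% of all measured genes. The list thus held opposite differences. Cd163 and the collectin receptor Colec12 (from 14.5 to 7.78 CPM, 0.536, 0.402 to 0.708) were lower. Marco, which binds bacteria, had 346 CPM at 3 days, 594 CPM at 10 days and 329 CPM in chow (1.72, 1.65 to 1.79), and was seen in 19.6% (18.4% to 20.9%) and 27.8% (26.1% to 29.5%) of thinned cells at 3 and 10 days (unthinned 35% and 48.5%, background 6.19% and 6.88%). The fatty acid receptor Cd36 had 186, 288 and 106 CPM (1.55, 1.47 to 1.64), and 1.42 with cells limited to 5% mitochondrial UMIs. Among genes for uptake of dying cells, with a median of 0.05 over 14 members, Tgm2 was higher and the lipid-sensing receptor Trem2 was lower (from 51.6 to 30.3 CPM, 0.588, 0.509 to 0.677). In cells of over 5% mitochondrial UMIs Trem2 had 0.708. Tyrobp, the signalling adaptor of Trem2, had a ratio of 0.790 (0.776 to 0.804).

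Kupffer cells recycle iron from red cells. The haem and iron list had a median of −0.13 over 18 members, with 0 higher and 1 lower, which was Cd163. Its second lowest member was Spic, the transcription factor of iron-recycling macrophages, at 123 and 91.2 CPM (0.743, 0.683 to 0.809). The transferrin receptor Tfrc had 27.5 and 33.5 CPM (1.22, 1.04 to 1.42) and 71.8 CPM in chow. Aco1, an iron-sensing protein, was at the upper end with 1.27. The ferritin light chain Ftl1 had 9669 CPM at 3 days and 8165 CPM at 10 days (0.845, 0.837 to 0.852).

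LXR, the receptor for oxysterols, turns on genes for cholesterol export and fatty acid synthesis. Its targets had a median of 0.13 over 19 members, with 2 higher and 0 lower, against 1.98% and 1.71% of all measured genes. The higher ones were the desaturases Scd1 and Scd2, of which Scd2 had 1.4 in cells limited to 5% mitochondrial UMIs. The lowest were Apoc4 (0.741, and 1.76 in cells limited to 5% mitochondrial UMIs) and Apoe, the lipoprotein component that macrophages secrete, with 12504 CPM in chow, 11587 CPM at 3 days and 8804 CPM at 10 days (0.760, 0.753 to 0.766). Low-UMI barcodes had a ratio of 0.546 for Apoe. Genes for uptake, storage and oxidation of fatty acids had a median of 0.13 over 22 members, with Cd36 the 1 higher member and Angptl4, an inhibitor of lipoprotein lipase, the 1 lower (from 15.6 to 9.86 CPM, 0.633, 0.488 to 0.815). The triglyceride lipase Pnpla2 had 0.691 (0.623 to 0.767) and Hadhb, of mitochondrial beta-oxidation, 1.27. Cholesterol synthesis genes under SREBP2 had a median of 0.15 over 9 members, 0 past the limit in either direction.

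Most chaperone and stress genes had ratios above 1 but within 1.5-fold. Endoplasmic reticulum stress genes, which fold secreted proteins and remove misfolded ones, had a median of 0.21 over 24 members, with 21 above 0, 1 higher and 0 lower. The higher one was the chaperone Hyou1 (from 25.1 to 41.2 CPM, 1.64, 1.41 to 1.91), followed by Creld2 (1.49, 1.26 to 1.76). Hyou1 had 1.45 in cells of at most 5% mitochondrial UMIs and 1.48 in the others. Ddit3, the stress transcription factor CHOP, had the lowest ratio, 0.760 (0.665 to 0.867). Summed, the list had 4698 CPM at 3 days, 6007 CPM at 10 days and 4854 CPM in chow. Heat shock chaperones had a median of 0.20, with all 14 members above 0 and 0 past 1.5-fold. Their highest members were Hsp90aa1 (1.48, 1.40 to 1.56) and Hsp90ab1 (from 1094 to 1522 CPM, 1.39, 1.36 to 1.42). Per cell, the pairs with the 10-day cell above were 63.5% for endoplasmic reticulum stress and 59.7% for heat shock genes. Without the most abundant members, Hsp90b1 and Hsp90ab1, they were 61.2% and 55.5%. For the Kupffer identity list, whose median is near 0, they were 58.1%. The medians stayed between 0.190 and 0.240 and between 0.150 and 0.220 over the settings tried.

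Ribosomal protein genes had a median of −0.27, with 79 of 81 members below 0 and 0 past 1.5-fold. Their sum was 137774 CPM in chow, 136386 CPM at 3 days and 115079 CPM at 10 days. Rplp1 had the highest ratio (1.06). Transcripts encoded by the mitochondrial genome had a median of 0.30, with all 13 above 0 and 0 past 1.5-fold, and mt-Nd3 had 1.43 (1.39 to 1.48). The median cell held 125 ribosomal protein UMIs of 1000 at 3 days and 103 at 10 days. For mitochondrial transcripts it held 52.0 and 65.0. Both shares are common measures of cell quality, and their part in the other differences was not tested. With cells limited to 5% mitochondrial UMIs the ribosomal median was −0.10 and the mitochondrial median 0.110. The nuclear genes of oxidative phosphorylation had a median of −0.05 over 45 members, 0 past the limit.

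**Figure D5:**
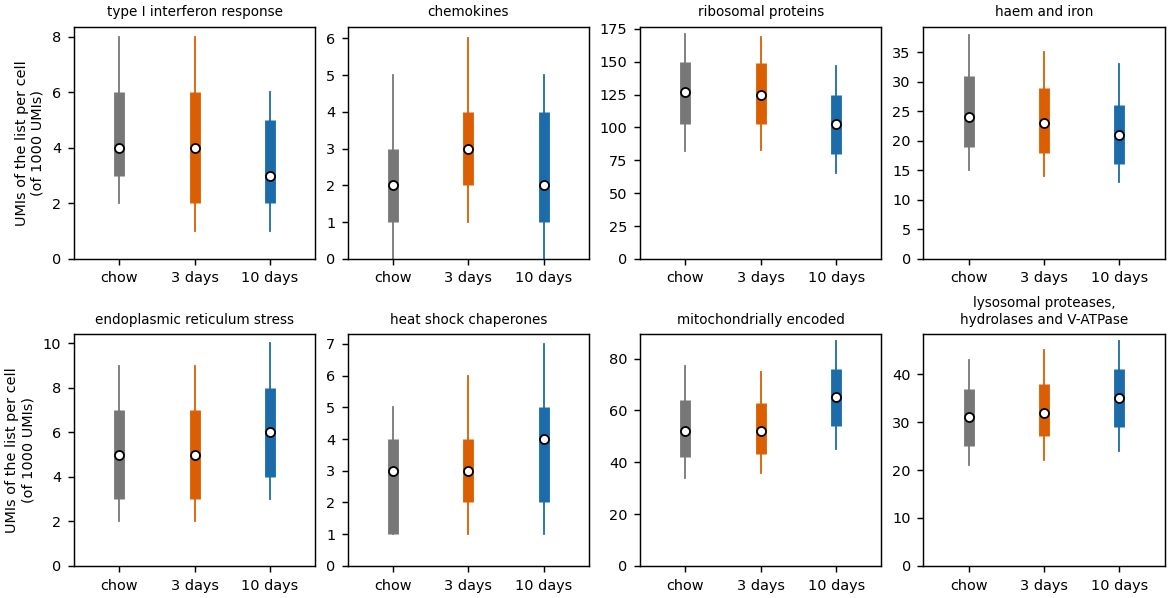
For 8 gene lists, white points are the median number of UMIs per Kupffer cell of 1000 UMIs, thick bars the 25th to 75th percentiles and thin lines the 10th to 90th, in the chow, 3-day and 10-day libraries. The distributions overlap widely in every panel, including ribosomal proteins, where the medians were 125 at 3 days and 103 at 10 days.

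Transcription factors of macrophages had a median of 0.11 over 35 members, with 4 higher and 0 lower, against 1.98% and 1.71% of all measured genes. Bhlhe40, a repressor tied to macrophage proliferation and the clock, had 18.0 CPM in chow, 19 CPM at 3 days and 48.1 CPM at 10 days (2.53, 2.16 to 2.97), but was seen in 4.88% of thinned cells at 10 days beside 7.5% of T and NK-like barcodes, which may express it. Klf4, a factor of alternative activation, had 23.8, 59.8 and 102 CPM (1.71, 1.55 to 1.88), ordered from chow to 10 days. Cebpb, a factor of inflammatory and metabolic genes, had 315, 484 and 804 CPM (1.66, 1.61 to 1.72). Its share of thinned cells was 40.5% (39.0% to 42.1%) at 3 days and 56.6% (54.7% to 58.5%) at 10 days (unthinned 74.7% and 87.8%), beside a background of 7.22% and 8.12%. Irf1, given above, was the fourth. The lineage factor Spi1 had 620.1 and 637 CPM (1.03), and Irf7 and Runx1 (0.698) had the lowest ratios.

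Immediate-early genes, which tissue digestion also induces, had 4 higher and 2 lower members of 19, against 1.98% and 1.71% of all measured genes. Their median was 0.01. Myc, which drives growth genes, had 19.1 and 36.8 CPM (1.92, 1.63 to 2.28), and the small GTPase Rhob had 309 and 531 CPM (1.72, 1.65 to 1.79). Nr4a1, an orphan nuclear receptor (1.70, 1.53 to 1.88), and Klf4 were the other higher ones. Egr1 (from 52.9 to 27.8 CPM, 0.526, 0.453 to 0.608) and Fos (from 319.6 to 197 CPM, 0.616, 0.582 to 0.651) were lower. In cells of 2000 to 4000 UMIs Fos had 0.670. Members of this list thus differed in both directions. Glucocorticoid targets and metallothioneins had 4 lower members of 11, Sult1a1, Fkbp5, Cd163 and Mt1, and 1 higher, Cebpb. Their median was 0.11, and Klf9, a factor induced through the glucocorticoid receptor, had a ratio of 1.51 (1.29 to 1.76) that was under the limit once 1 CPM was added.

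Cell cycle genes held differences in both directions. Of all measured genes 1.98% were higher and 1.71% lower. Of G1 cyclins and brakes, 1 of 21 was higher, Ccnd1, and 3 were lower, the inhibitors Cdkn2c (from 16.0 to 8.00 CPM, 0.498, 0.376 to 0.654) and Cdkn1a (from 23.3 to 14.6 CPM, 0.625, 0.506 to 0.769) and the cyclin Ccng2 (0.603, 0.505 to 0.719). In cells of 2000 to 4000 UMIs Cdkn2c had 0.701 and Ccng2 0.725. Of the replication and mitosis list, 3 of 16 were higher and 0 lower, with a median of 0.16. Mcm5 (from 7.94 to 19.3 CPM, 2.43, 1.89 to 3.13) and Mcm6 (from 15 to 30.1 CPM, 2.00, 1.66 to 2.42) encode subunits of the replicative helicase, and Tk1, a kinase of thymidine, had 1.55. Mitotic genes were not higher. Top2a, which untangles DNA, had 41.7 and 32.2 CPM (0.773, 0.668 to 0.893) and Cenpa, of the centromere, had 0.816. Shares of thinned cells were small, 0.785% and 1.36% for Mcm5 beside 2.06% and 1.88% in T and NK-like barcodes, which can also divide. The 1% of cells with the most UMIs of the list held 24.0% of them at 3 days and 22.4% at 10 days.

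Antigen presentation genes differed little. Class II genes had a median of −0.13 over 9 members, 0 past the limit, with 14069 CPM in sum at 3 days and 12787 CPM at 10 days. The peptide-exchange cofactor H2-DMb2 had the lowest ratio, 0.733. Class I and immunoproteasome genes had a median of −0.10 over 18 members, with 1 lower, the nonclassical H2-Q7 (from 70.5 to 41.4 CPM, 0.587, 0.520 to 0.663), whose sequence is close to that of neighbouring class I genes. Fc receptors, which bind antibody-coated particles, had a median of −0.22 over 6 members, 0 past the limit. The activating receptor Fcgr3 went from 469.8 to 329.6 CPM (0.701, 0.671 to 0.733), and its signalling chain Fcer1g from 1997 to 1638 CPM (0.820, 0.804 to 0.837).

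Kupffer identity genes outside the gate had a median of 0.04 over 25 members, with 1 higher and 1 lower. Pcolce2, a secreted collagen-processing cofactor, had 165 and 268 CPM (1.62, 1.53 to 1.72), and the mitochondrial arginase Arg2 had 27.5 and 10.3 CPM (0.374, 0.295 to 0.470, and 0.231 in cells limited to 5% mitochondrial UMIs), beside 11.3 CPM in chow. The brain-type fatty acid binding protein Fabp7 was second highest, at 918 and 1331 CPM (1.45, 1.41 to 1.49). Of the gate genes, whose summed share chose the cells, C1qb had a ratio of 0.798 and Clec4f 1.02, given as a description. The median of the identity list lay between 0.0200 and 0.0600 over the settings tried.

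The medians of several lists were close to 0 on the log2 scale. Lysosomal proteases, hydrolases and proton pump subunits had 0.09 over 34 members, 0 past the limit. Cytokine receptors had 0.04 over 24, with 0 past it, and glycolysis −0.00 over 16, with the kinase Pgk1 (1.57, 1.19 to 2.07; 1.36 in cells of 2000 to 4000 UMIs) higher. Genes of ethanol and acetaldehyde metabolism had 0.03 over 8 measured members, 0 past the limit. Among them the mitochondrial aldehyde dehydrogenase Aldh2 had 599 and 662 CPM (1.1, 1.07 to 1.14). Antioxidant genes had 0.07 over 25, with Gstp1, a glutathione transferase, higher (1.52, 1.34 to 1.73; 1.26 in cells of 2000 to 4000 UMIs and 2.76 in cells limited to 5% mitochondrial UMIs). Actin and motility genes had 0.06 over 30, with 3 higher, the tetraspanin Cd9 (1.88, 1.49 to 2.37), Tagln2 (1.81, 1.67 to 1.98) and the cytoplasmic actin Actg1 (from 1578 to 2555 CPM, 1.62, 1.59 to 1.65). Per cell, the 10-day cell was above in 54.8% of pairs for this list, and in 64.0% without Tmsb4x, its most abundant member. Complement genes outside C1q had 0.07 over 14, with the anaphylatoxin receptor C5ar2 higher (1.63) and factor B, Cfb, lower (0.642; 0.773 in cells limited to 5% mitochondrial UMIs).

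Markers of other cell types were low, and some differed between the libraries. The 38 hepatocyte markers had 19 measured members with a median of −0.48, 3 higher and 7 lower, and summed to 1618 CPM at 3 days and 1358 CPM at 10 days. In low-UMI barcodes their sum had a ratio of 0.387. Sinusoidal endothelial markers had a median of 0.36 over 7 members, 3 higher, with sums of 316 and 365 CPM. T and NK markers summed to 281 and 234 CPM, B and plasma cell markers to 175 and 261 CPM, neutrophil markers to 118 and 127 CPM and monocyte markers to 557 and 568 CPM. Of the 21 B and plasma cell markers, 5 were at 0 at 3 days and 4 at 10 days. The part of these RNAs in the differences above was not tested. With the barcodes removed that carried at least 2 of 79 markers of other types, 168 genes were higher and 140 lower. Of the 149 higher and 129 lower genes among all Kupffer cells, 139 and 110 were also called there.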

How the data were processed

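Single-cell RNA was measured in 3 libraries, 1 per mouse. The authors deposited raw UMI counts per gene and barcode for all barcodes, 28692 genes in each matrix. The submitters' processing notes name Cell Ranger 2.2.0 and the builds GRCm38 and mm10. Cell calling, annotation release and strand setting are not given in the sources used here. Total counts per library were 21650747 (chow), 21471782 (3 days) and 16538895 (10 days).

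Sums of the counts over Kupffer barcodes, taken for each library, were scaled to CPM. Ratios of 10 days over 3 days have nothing added and carry exact conditional binomial 95% intervals; calls and log2 ratios have 1 CPM added to both sides. Shares have Clopper-Pearson intervals, and a share of 0 was given the limit of 3 counts. For shares and list sums per cell, each cell was thinned to 1000 UMIs, the minimum of the cell rule, so none was left out. T and NK-like barcodes were those outside the Kupffer gate with at least 3 of 14 T and NK markers. Low-UMI barcodes held 10 to 100 UMIs. Where free RNA was subtracted, 10% of each Kupffer profile was taken to be the low-UMI profile of its library. That share was assumed and not estimated, and levels below 0 were set to 0. Doublets were kept in the main sums. Scrublet in scanpy 1.11.5 marked 0% and 0.0332% of passing barcodes at 3 and 10 days. Whether doublets were few or were missed was not tested. Removing the 4% with the highest scores was an alternative. The summing and calling steps were tested on simulated data.

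The named genes were the 15 highest and 15 lowest ratios among genes with at least 50 CPM in 1 of the 2 libraries and an interval that excluded 1. Mitochondrial, ribosomal protein, provisional, immunoglobulin, hepatocyte, erythroid and gate genes were left out of this ranking. The 2 measured members at each end of every gene list were named too, and other members named by their role or to spell out a count were chosen after their values were seen. The members and the lists were chosen with earlier results of these data known. Coordinates are from GENCODE vM21 on GRCm38, in which 28339 gene IDs were found. With 1 library per group there was no test. Alternatives were 14 planned settings and 1 added later. Python 3.11.15, numpy 2.4.6, scipy 1.17.1 and pandas 2.3.3 were used.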

Additional observations from a re-analysis of the deposited data

How the results depend on the processing

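No paired analysis was possible because each group had 1 library, and no library could be left out for the same reason. Of the 15 settings, 1, cells of over 5% mitochondrial UMIs, was chosen after seeing the data. The 30 named genes were chosen for their ratios, so their direction is no measure of stability. With a mitochondrial limit of 5% 27 of them stayed past 1.5-fold, and under each other setting but a filter at 50 CPM all 30 did. That filter kept 23, all past 1.5-fold. It dropped the rest for their mean level, with their ratios unchanged. Main counts were 149 higher and 129 lower. They were 53 and 35 with a filter at 50 CPM, 370 and 369 with a filter at 1 CPM, and 266 and 294 with a mitochondrial limit of 5%, which left 384 cells at 10 days. With a pseudocount of 5 CPM they were 100 and 74. The level filters change only which genes are tested. The mitochondrial limit changes both how many cells and which cells are counted, and the part of each in these counts was not tested. All other counts lay within 1.5 times of the main ones.

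Some list medians and single ratios crossed 0 or 1. Those given here had a median at least 0.1 from 0, or an interval that left out 1, in the main values. With the mitochondrial limit of 5%, the medians of class II presentation (0.07) and hepatocyte markers (0.74) did, and so did the ratios of Apoc4 (1.76), H2-Eb1 (1.09), Cxcl9 (0.718), Il6 (0.805), Mgst1 (1.07), Adh5 (0.967), Ccr2 (1.76), S100a10 (1.07), mt-Co1 (0.977), Apoa2 (1.21) and Alb (1.19). With a Kupffer marker share of at least 2%, these were the T and NK median (0.18), Hbb-bt (1.11), Cd5l (1.01) and Vsig4 (1.00). In cells of 2000 to 4000 UMIs they were the T and NK median (0.15), Top2a (1.03) and Ltb (1.27). With barcodes carrying markers of other cell types removed they were the T and NK median (0.52), Ccr2 (1.19), S100a10 (1.03) and Ltb (1.54). With free RNA subtracted they were the hepatocyte median (2.49), Mgst1 (1.34), Serpina3k (2.68), Cd5l (1.00) and Alb (3.03). In cells of over 5% mitochondrial UMIs they were the chemokine median (0.10), Hbb-bt (1.01), Hbb-bs (1.17) and mt-Co1 (0.984). For Alb, Kupffer cells and low-UMI barcodes had 105 and 962 CPM at 3 days and 74.5 and 466 CPM at 10 days. Subtracting the assumed 10% of free RNA thus took away nearly all of its 3-day level and less of its 10-day level. Values nearer to 0 or 1 crossed too. With the mitochondrial limit of 5% these were 9 further medians, among them sensing of microbial products (from 0.02 to −0.15), and 8 further ratios, among them S100a8 (from 0.968 to 3.49) and S100a6 (from 0.855 to 1.48). Under each other setting they were at most 4 medians and 12 ratios. The cause was not tested. Depth limits genes seen in few cells, where a share of 1000 UMIs cannot be told from background.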

Other observations

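The circadian clock list, with 7 measured members and a median of 0.00, held Bhlhe40 as 1 higher member and Cry1, a repressor of the clock, as 1 lower, at 16.6 CPM at 3 days and 8.32 CPM at 10 days (0.502, 0.381 to 0.655) beside 3.75 CPM in chow. The time of day at which each mouse was sampled is not given in the sources used here.

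Of the long noncoding RNA list, 6 members were measured and their median was −0.32. Snhg6, a host gene of small nucleolar RNAs, was lower (from 31.8 to 19.6 CPM, 0.617, 0.515 to 0.737; 0.740 in cells limited to 5% mitochondrial UMIs), and the nuclear Malat1 had 30083 CPM at 3 days and 26886 CPM at 10 days (0.894, 0.889 to 0.898). Gm42418, a transcript that overlaps a ribosomal RNA repeat, had 1613 CPM in chow, 1881 CPM at 3 days and 3637 CPM at 10 days, a ratio of 1.93 (1.90 to 1.97), and its ratio in low-UMI barcodes was 4.52. With free RNA subtracted its ratio was 1.05, a value that depends on the 10% assumed, not estimated, for free RNA. It was outside the ranking because its symbol is provisional. Mup20, of a family of near-identical urinary protein genes of hepatocytes, had 86.3 and 136 CPM (1.58, 1.46 to 1.72), while its level in low-UMI barcodes was 1392 CPM at 3 days and 567 CPM at 10 days.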
